A study of Mus musculus with 8 samples.

Results

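Suprabasal transient amplifying cells (TACs) of the growing mouse hair follicle were set against basal TACs by ATAC-seq, an assay of open chromatin based on where the Tn5 transposase can cut. The suprabasal TACs came from back skin of K14-H2BGFP mice, in which the keratin 14 promoter drives a green fluorescent histone in basal epithelial cells, at postnatal day 30, and were sorted as GFPlow, negative for integrin α6 and CD34. The basal TACs came from back skin of Lgr5-eGFP-ires-CreER mice, which carry a reporter and an inducible Cre in the Lgr5 gene, at the same age, and were sorted as GFP-negative, CD34-negative, high in integrin β1, positive for P-cadherin and negative for SCA1. Animals of mixed sex were used for both. Each population has 2 samples, which the authors pooled into 1 peak list, so no value below has a spread between replicates, no p-value is given, and intervals are 95% intervals of counting error. Strain and population coincide and cannot be told apart. Peaks of both lists that overlapped by at least 1 bp were merged into sites, with mitochondrial and Y-linked peaks set aside: 72137 suprabasal and 75637 basal peaks gave 97543 sites, of 114956 sites when the bulge and hair germ lists of the same study are added. The signal of a site is its highest pileup, the number of fragments that overlap at one base, scaled to 1000000 fragments of the library (fpm).

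TACs are the dividing progeny of hair follicle stem cells and form the matrix at the base of the growing follicle. Basal TACs sit against the dermal papilla and the basement membrane; suprabasal TACs lie above them and give rise to the inner root sheath, which moulds the hair, and to the hair shaft. WNT, BMP, Notch and SHH signals act in this region, and the factors LEF1, GATA3, HOXC13 and FOXN1 are known regulators of the sheath and shaft fates. Accessible sites near a gene often hold its promoter and enhancers, but accessibility is not expression, and the nearest gene need not be the one a distal site acts on.

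Promoter windows, from 250 bases before to 50 bases after a gene's start, are given for 4 genes whose starts differed between the populations, from RefSeq on GRCm38.p6 (the mm10 build) and on the strand of the gene. Capitals mark letters of 10 searched motifs: LEF/TCF (CTTTGAT), AP-1 (TGANTCA), the GATA factor motif (AGATAAG), the RUNX motif (TGTGGTT), SMAD/BMP (GGCGCC), NFI (TTGGCA), homeobox (TAATTA), E2F (TTCGCGC), the TATA box (TATAAA) and p53 family (CATGTC), on either strand. Letters of the KLF/SP (CCCNCCC) and RBPJ (TGGGAA) motifs, found in 55.5% and 24.2% of all 21019 windows, were left in lower case. Krt71 and Krt73 encode keratins of the inner root sheath, Lef1 a DNA-binding partner of β-catenin, and Lrig1 a brake on EGF receptors that marks stem cells of the upper follicle. The windows lie at chr15:101743048-101743347 (Krt71, minus strand), chr15:101802311-101802610 (Krt73, minus strand), chr3:131110073-131110372 (Lef1, plus strand) and chr6:94700096-94700395 (Lrig1, minus strand).
Krt71: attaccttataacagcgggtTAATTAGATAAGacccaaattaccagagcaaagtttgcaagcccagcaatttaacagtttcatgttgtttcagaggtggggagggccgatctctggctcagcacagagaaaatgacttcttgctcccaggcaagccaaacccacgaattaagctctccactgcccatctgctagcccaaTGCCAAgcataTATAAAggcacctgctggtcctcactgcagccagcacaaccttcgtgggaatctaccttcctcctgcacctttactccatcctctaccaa
Krt73: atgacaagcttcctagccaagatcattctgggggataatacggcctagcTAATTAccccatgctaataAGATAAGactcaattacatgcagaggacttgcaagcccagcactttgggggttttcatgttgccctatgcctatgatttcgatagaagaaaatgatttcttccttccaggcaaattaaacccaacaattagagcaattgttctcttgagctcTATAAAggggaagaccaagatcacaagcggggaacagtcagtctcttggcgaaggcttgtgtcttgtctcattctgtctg
Lef1: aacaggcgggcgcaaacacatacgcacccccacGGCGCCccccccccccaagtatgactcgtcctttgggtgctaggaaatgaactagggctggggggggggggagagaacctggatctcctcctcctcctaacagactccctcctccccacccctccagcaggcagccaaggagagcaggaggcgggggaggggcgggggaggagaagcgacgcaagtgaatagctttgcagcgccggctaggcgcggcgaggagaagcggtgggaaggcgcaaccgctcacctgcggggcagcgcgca
Lrig1: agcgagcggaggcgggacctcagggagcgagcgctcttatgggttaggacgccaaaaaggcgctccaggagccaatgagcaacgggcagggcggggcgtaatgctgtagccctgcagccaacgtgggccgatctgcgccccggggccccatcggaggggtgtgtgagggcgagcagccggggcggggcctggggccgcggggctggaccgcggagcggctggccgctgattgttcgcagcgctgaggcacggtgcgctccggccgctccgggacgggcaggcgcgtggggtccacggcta
A homeobox, a GATA and a TATA match stand in both keratin windows, and in Krt71 the homeobox and GATA matches share a letter. Such matches were found in 4.47% (homeobox), 2.63% (GATA) and 12.7% (TATA) of all windows. Krt71 also holds an NFI match, as do 13.1% of all windows. The Lef1 window holds 1 SMAD/BMP match, as do 15.5% of all windows, and the Lrig1 window none of the 10 motifs. Only the last part of the Lef1 window lies in the accessible site at its start (chr3:131110310-131112686), and the match lies outside that site. The Krt71 and Krt73 windows are poor in CpG, with 4 CpG each, against 21 in Lef1 and 35 in Lrig1.

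The 4 starts differed in accessibility. At the Krt73 start (site chr15:101802160-101802901) suprabasal TACs had a pileup of 80 fragments, or 1.67 fpm, and basal TACs had no peak. At the Krt71 start (chr15:101742608-101743677) the pileup was 70 in suprabasal TACs and 28 in basal TACs, or 1.46 and 0.908 fpm. At Lef1 (chr3:131110310-131112686) it was 168 and 79, or 3.51 fpm in suprabasal TACs and 2.56 in basal TACs. At Lrig1 (chr6:94699161-94700889) it was 146 in suprabasal TACs and 311 in basal TACs, or 3.05 and 10.1 fpm. The keratin and Lef1 starts had more signal in suprabasal TACs and the Lrig1 start had more in basal TACs.

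The suprabasal library held 47852893 fragments with a mean size of 187 bp, the basal library 30824845 with 256 bp, per the file headers. The median fold enrichment of a peak over its local background, as the authors' caller gave it, was 4.79 in the suprabasal list and 6.71 in the basal list, and the shallowest used peak had a pileup of 15 in the suprabasal list and 12 in the basal list. At the 48435 sites of both lists the signal was lower in suprabasal TACs, with a median log2 ratio (suprabasal over basal) of -0.57. The log2 ratio of the mean fragment sizes was -0.45; the part of fragment size in that median was not tested. Every ratio below is centred on it, as a log2 difference from the typical shared site. At the Krt71, Lef1 and Lrig1 starts it was 1.25, 1.02 and -1.16. Fold enrichment over local background, centred in the same way, gave 0.22, -0.02 and 0.34 there, so at Lef1 and Lrig1 the direction depends on the scale. On the X chromosome the centred median was 0.03, and over the chromosomes it lay between -0.07 (chromosome 1) and 0.07 (chromosome 19).

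Sites in the suprabasal list only numbered 22351, or 22.9% of all sites, and sites in the basal list only 26757, or 27.4%. Shared sites made up 49.7%. Of the shared sites, 5003 (10.3%) had a centred ratio at least 2-fold higher in suprabasal TACs and 6456 (13.3%) one at least 2-fold lower. With no centring 12.03% of the sites past 2-fold were higher in suprabasal TACs, with centring 43.7%, and with fold enrichment in place of pileup 41.8%. Of the sites called higher, 98.3% also had a centred fold enrichment above 0 (median 0.78), and of those called lower, 93.2% had one below 0 (median -0.80); both scales come from 1 set of fragments, and all these sites were chosen for a large ratio. Sites in 1 list only were short, with a median of 378 bp in the suprabasal list and 491 bp in the basal list, against 1013 bp for shared sites. They were also weak: in the top 10% of each list by pileup, 0.933% of the suprabasal sites and 2.85% of the basal sites were missing from the other list. In the lowest 25% these shares were 57.9% in suprabasal and 58.3% in basal TACs. Absence from a list at this depth does not show closed chromatin.

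**Figure D1:**
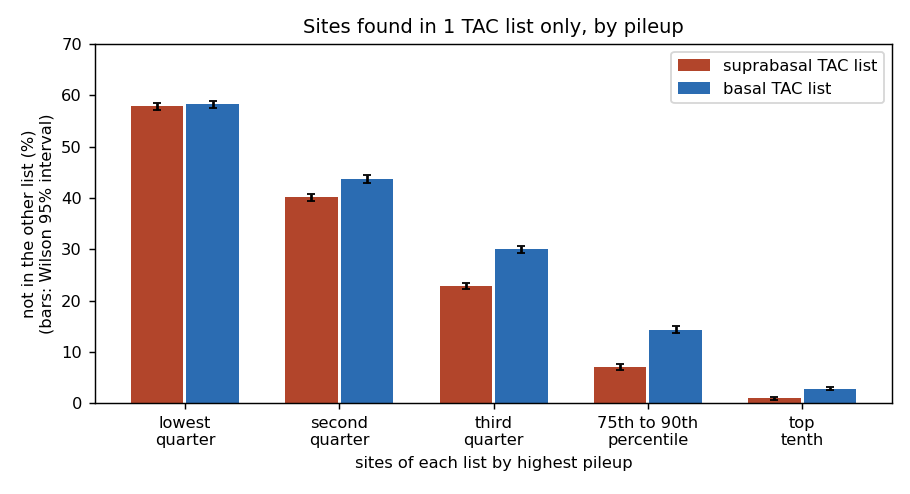
Share of each list's sites (%) that are not in the other list, by highest pileup, for suprabasal (red) and basal (blue) TACs, with Wilson 95% intervals. The share is high in the lowest 25% (57.9% in suprabasal, 58.3% in basal TACs) and low in the top 10% (0.933% and 2.85%).

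Within 1 kb of a gene end lay 15.9% of all sites, so most sites of any kind were away from gene ends. The share was lower for sites in 1 list only and for shared sites past 2-fold. Within 1 kb of a gene end lay 6.46% of the suprabasal-only sites (Wilson interval 6.15 to 6.79) and 4.39% of the basal-only sites (4.15 to 4.64), against 26.6% of shared sites. Of the shared sites at least 2-fold higher 9.23% lay there, of those at least 2-fold lower 7.50%, and of those within 2-fold 32.2%. Shared sites near gene ends were also stronger, with medians of 2.63 fpm in suprabasal and 3.76 in basal TACs, against 1.17 and 1.88 at other shared sites. The part of signal strength in these shares was not tested. Of 10761 start-holding sites, counted per gene, 9750 were shared within 2-fold, 214 were higher and 277 lower in suprabasal TACs, 236 were suprabasal-only and 284 basal-only.

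The bulge and hair germ lists, from resting (telogen) follicles at postnatal day 55, were not used to form the comparison. Suprabasal-only sites overlapped a peak of either telogen list in 20.2% of cases (19.7 to 20.7) and basal-only sites in 37.8% (37.3 to 38.4). At shared sites the share was 49.7% (48.3 to 51.1) for those at least 2-fold higher in suprabasal TACs, 75.8% (74.8 to 76.9) for those at least 2-fold lower and 77.6% for those within 2-fold. The gap was larger among stronger sites. In the top 25% of each whole list by pileup, 29.3% of 837 suprabasal-only sites and 60.8% of 1854 basal-only sites overlapped a telogen peak. In the lowest 25% the shares were 16.3% of 10458 and 29.1% of 11159. The top band began near a pileup of 100 in each list, or 2.09 fpm in suprabasal and 3.24 in basal TACs. The bands thus differ in scaled signal. Bulge and hair germ differed little in this: a bulge peak was present at 17.0% of suprabasal-only and 32.8% of basal-only sites, and a hair germ peak at 14.2% and 29.7%. The telogen and basal TAC samples share the Lgr5-eGFP-ires-CreER strain, and the hair germ library is the shallowest, with 11053351 fragments. Their part in these shares was not tested.

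**Figure D2:**
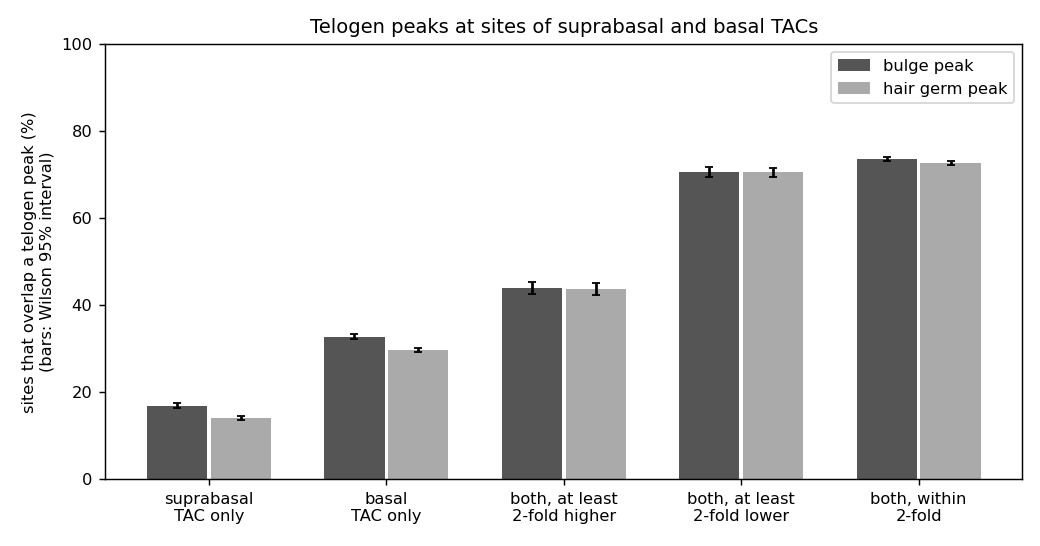
Share of sites (%) that overlap a bulge or hair germ peak, for 5 classes of sites of suprabasal and basal TACs, with Wilson 95% intervals. Suprabasal-only sites have the lowest shares (17.0% bulge, 14.2% hair germ), basal-only sites have 32.8% and 29.7%, and shared sites at least 2-fold lower in suprabasal TACs have 70.5% for each.

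Each site was given to its closest protein-coding gene, up to 100 kb away, which placed 88334 sites at 16526 genes. More sites in suprabasal TACs were found at 5252 genes (31.8%), fewer at 5145 (31.1%). Of the 43205 sites in 1 list only that had a gene, 47.3% were in the suprabasal list. These values are the background for the gene lists, which hold 362 distinct genes in 21 lists that share some members. Intervals of list shares count each site as independent, though many sites can belong to 1 gene, so they leave out the spread between genes. All 21 medians of shared sites lay below 0 before centring (highest -0.04), so every direction at shared sites is relative to the median of all shared sites. With centred fold enrichment in place of pileup, 6 of the 21 medians had the other sign; they were those of basal adhesion, bulge, matrix ligand, AP-1, endothelial and Merkel cell genes. Among the 329 list members with a shared site, the gene's own median had the other sign on fold enrichment in 109, and in 24 of the 106 whose median was at least 0.5 in size. Widely expressed genes, a list with no link to these populations, had 18 of 23 sites in 1 list only in the suprabasal list (78.3%, 58.1 to 90.3), so a share above 47.3% is not particular to the follicle lists.

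Inner root sheath genes had more sites in suprabasal TACs at 14 of 18 members and fewer at 3. Of their 104 sites in 1 list only 71 were suprabasal, or 68.3% (Wilson interval 58.8 to 76.4). Without Cux1, the member with most sites in 1 list only, the share was 80.3%, outside that interval. Their 107 shared sites had a median centred ratio of 0.40, with 27 at least 2-fold higher and 5 lower. Tgm3, a transglutaminase that cross-links sheath and shaft proteins, had 15 sites in suprabasal and 9 in basal TACs. Its start had 4.95 fpm in suprabasal TACs and 2.89 in basal TACs, a centred ratio of 1.34 from pileup and -0.05 from fold enrichment. Trps1, a GATA-type repressor, had 33 and 19 sites, 16 of them suprabasal-only and 2 basal-only. The desmocollin gene Dsc1 had 15 and 9 sites and a median of 1.38 at 7 shared sites. Sox21, a regulator of hair differentiation, had 9 and 5 sites, and its start had 7.71 fpm in suprabasal TACs against 4.22 in basal TACs. The small keratin genes were open at few places: Krt26 had 1 site in suprabasal and none in basal TACs, Krt73 2 and none, Krt27 3 and 1, and Krt72 3 and 2. The starts of Krt26, Krt72 and Krt73 held a peak in suprabasal but not basal TACs, with pileups of 29, 21 and 80. The site at the Krt73 start also overlapped a telogen peak, and those at Krt26 and Krt72 did not. Cux1 went the other way, with 39 sites in suprabasal and 44 in basal TACs, and so did Padi3 (5 and 6) and Ctsc (6 and 9).

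Hair shaft genes had more sites in suprabasal TACs at 16 of 25 members and fewer at 4. Of 84 sites in 1 list only 62 were suprabasal (73.8%, 63.5 to 82.0), and the median of 114 shared sites was 0.53, with 35 at least 2-fold higher and 4 lower. Lef1 had 27 sites in suprabasal and 18 in basal TACs, with a median of 1.30, and 11 of its 17 shared sites were at least 2-fold higher. Hoxc13, which drives hair keratin genes, had 20 and 14 sites, and Foxn1, the gene mutated in nude mice, 7 and 5. The start of Foxn1 had 2.61 fpm in suprabasal TACs and 1.52 in basal TACs. The desmoglein gene Dsg4 had 12 and 7 sites. In the hair keratin Krt35 a site inside the gene (chr11:100095947-100096570) had a pileup of 210 in suprabasal and 17 in basal TACs, a centred ratio of 3.56 (2.84 to 4.36), close to the highest of any shared site. The neighbouring gene Krt36 had 3 sites in suprabasal TACs, with pileups of 108, 84 and 69, and none in basal TACs. Krt83 had 4 and 1 sites; Krt81, Krt83 and Krt86 are near copies of each other, and the sources used here do not say how reads that fit several places were treated. Dlx3 (7 and 8), Vdr (12 and 15), S100a3 (6 and 7) and Krt32 (3 and 4) had fewer sites in suprabasal TACs.

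**Figure D3:**
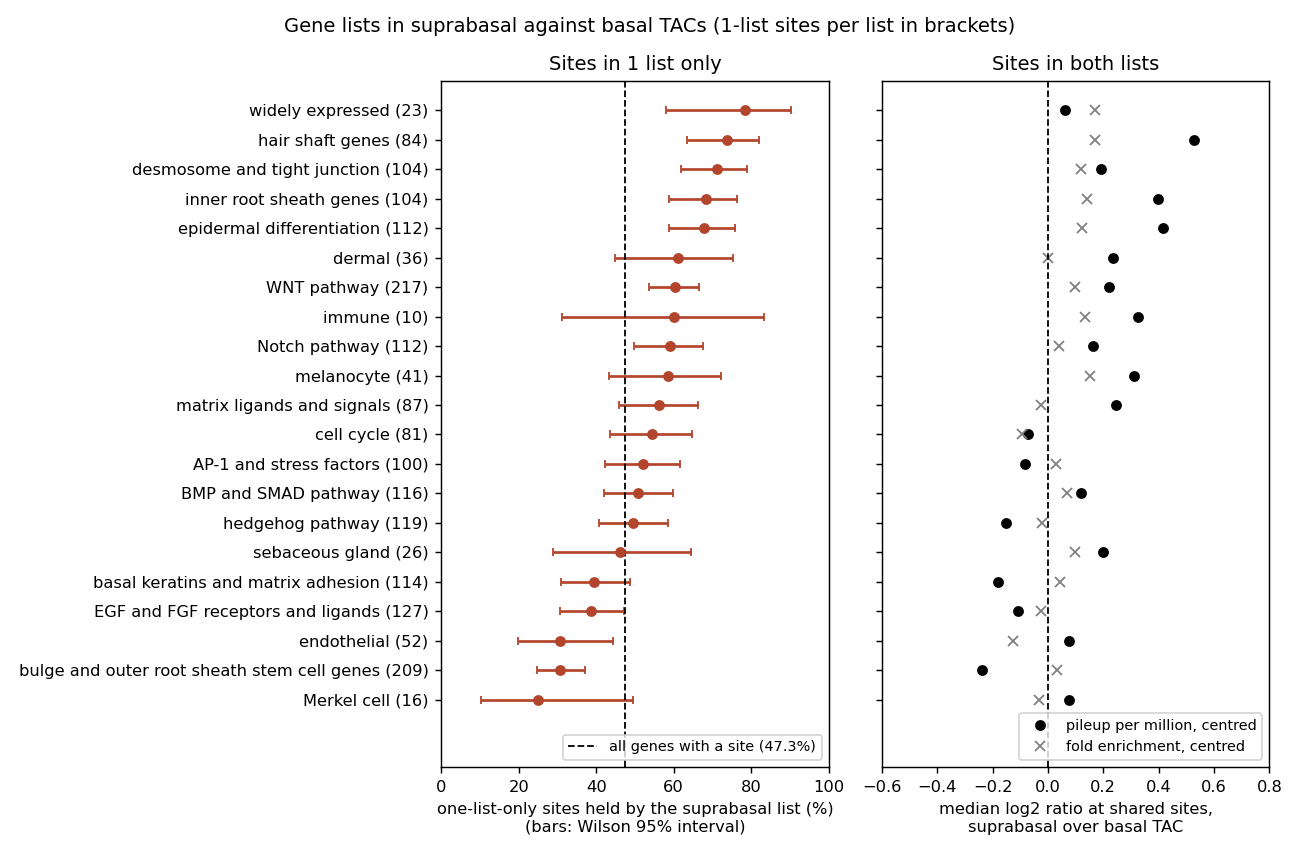
Left, share of each list's sites in 1 list only that the suprabasal list holds (%), with Wilson 95% intervals and the value over all genes (47.3%, dashed). The intervals count each site as independent and leave out the spread between genes. Right, median log2 ratio at shared sites, suprabasal over basal TAC, from centred pileup in fpm (dots) and centred fold enrichment (crosses). Hair shaft (73.8%) and inner root sheath genes (68.3%) lie above the dashed line and bulge genes (30.6%) below it, and 6 lists change sign between the 2 scales.

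Signals known from the matrix were divided. WNT pathway genes had more sites in suprabasal TACs at 21 of 30 members and fewer at 7; 131 of 217 sites in 1 list only were suprabasal (60.4%, 53.7 to 66.6), and 68 of 278 shared sites were at least 2-fold higher against 24 lower, with a median of 0.22. Znrf3, an E3 ligase that removes WNT receptors and is itself a WNT target, had 25 sites in suprabasal and 17 in basal TACs with a median of 0.96. Nkd1, another feedback inhibitor, had 17 and 11, and a site within it (chr8:88582763-88583329) was among the strongest suprabasal-only sites, with 5.73 fpm. The destruction complex gene Apc had 13 and 7 sites, and Axin2, the feedback target, 22 and 17. The start of the receptor gene Fzd10 had 2.97 fpm in suprabasal TACs and 2.08 in basal TACs. On the other side, Tcf7l1, a TCF repressor of the basal and stem cell layers, had 16 and 24 sites with a median of -0.81, the secreted antagonist Sfrp1 5 and 12, and the co-receptor gene Lrp6 13 and 18.

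Notch pathway genes had more sites in suprabasal TACs at 15 of 22 members and fewer at 4, and 66 of 112 sites in 1 list only were suprabasal (58.9%, 49.7 to 67.6). Their 148 shared sites had a median of 0.16, with 22 higher and 15 lower by at least 2-fold. The shared site with the highest ratio of any with a pileup of at least 30 in both lists and a gene within 100 kb lay 35.8 kb upstream of Notch1 by its nearer edge (chr2:26539585-26542143). Its pileup was 373 in suprabasal and 43 in basal TACs, or 7.79 and 1.39 fpm, a centred ratio of 3.05 (2.59 to 3.54), and both telogen lists had a peak there. Within 60 kb of the Notch1 start were 8 suprabasal-only, 2 basal-only and 12 shared sites, of which 4 were at least 2-fold higher and none lower. The start itself had 4.49 fpm in suprabasal and 4.25 in basal TACs, a centred ratio of 0.65. The median of the 7 shared sites assigned to Notch1 was 0.93 from pileup and -0.08 from fold enrichment. Nrarp, a Notch target and feedback inhibitor, had 6 sites in suprabasal and 3 in basal TACs, one of them a suprabasal-only site of 5.02 fpm 7.34 kb upstream. The fringe gene Mfng had 3 sites and none. Maml2, a coactivator, ran against the list with 25 and 36 sites, and the ligand gene Jag2 had 2 and 5.

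BMP and SMAD pathway genes had a share near the background in sites of 1 list only. Of 116 sites in 1 list only 59 were suprabasal (50.9%, 41.9 to 59.8), with more sites at 13 of 21 members and fewer at 5, and the median at shared sites was 0.12. Smad4, the shared effector, had 11 sites in suprabasal and 6 in basal TACs, and Smad1, an effector of BMP receptors, had 20 and 15. The receptor gene Bmpr1b had 4 and 18 sites, 14 of them basal-only, and Id4, a BMP target, 5 and 12. Among ligands and signals of the matrix, 49 of 87 sites in 1 list only were suprabasal (56.3%, 45.9 to 66.3), and the median of 0.25 became -0.03 with fold enrichment. Bmp4 had 11 and 9 sites, and its start had 6.79 fpm in suprabasal TACs and 4.96 in basal TACs. Shh, which sustains matrix proliferation, had 9 and 6 sites. Hedgehog pathway genes had 59 suprabasal-only and 60 basal-only sites (49.6%, 40.8 to 58.4) and a median of -0.15. The co-receptor gene Gas1 had 4 and 11 sites, and its start had 2.34 fpm in suprabasal TACs against 8.95 in basal TACs. The centred ratio at that start was -1.37 from pileup but -0.10 from fold enrichment. Cdon, a second co-receptor, had 9 and 6 sites but a median of -2.37 at 5 shared sites (-1.62 from fold enrichment).

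EGF and FGF genes had 49 suprabasal sites of 127 in 1 list only (38.6%). The interval of 30.6 to 47.27 ends next to the value over all genes (47.31%), just below it. With absence scaled for depth the share was 37.7%, against 42.2% over all genes. The median at shared sites was -0.11 from pileup and -0.02 from fold enrichment, and 11 of the 20 members with a site had fewer sites in suprabasal TACs and 6 had more. Fgf5, the signal that ends hair growth, had 5 sites in suprabasal and 11 in basal TACs. All of its 5 shared sites were at least 2-fold lower, with a median of -1.91 (-0.14 from fold enrichment), and no site within 60 kb of its start was suprabasal-only while 8 were basal-only. At the start (chr5:98253337-98254871) the pileup was 38 in suprabasal and 136 in basal TACs, or 0.794 and 4.41 fpm; the fold enrichment there gave a centred ratio of 0.30. Neither telogen list had a peak there. The neuregulin receptor gene Erbb4 had 1 and 9 sites, and the neuregulin gene Nrg1 had 6 and 15. Fgfr2, whose product receives FGF signals in epithelia, ran against the list with 31 and 21 sites.

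Genes of bulge and outer root sheath stem cells had fewer sites in suprabasal TACs at 11 of 20 members and more at 4. Of 209 sites in 1 list only 64 were suprabasal (30.6%, 24.8 to 37.2). A telogen peak overlapped 39.1% of the suprabasal-only and 60.0% of the 145 basal-only sites, against 20.2% and 37.8% over all sites. The shares were 37.8% and 58.0% in basal keratin and adhesion genes, and other lists were also above the values over all sites, with epidermal differentiation genes (36.8% and 55.6%) and desmosome genes (29.7% and 53.3%). The 196 shared sites had 11 at least 2-fold higher and 42 lower; their median was -0.24 from pileup but 0.03 from fold enrichment. Lrig1 had 8 sites in suprabasal and 28 in basal TACs. At a site 18.1 kb upstream of its start (chr6:94717612-94718969) the pileup was 24 in suprabasal and 218 in basal TACs, a centred ratio of -3.25 (-3.93 to -2.64). The median of its 7 shared sites was -1.16 from pileup and 0.15 from fold enrichment. Prlr, the prolactin receptor gene, had 2 and 16 sites, and Nfib, a nuclear factor I gene that acts in follicle stem cells, 44 and 64. Zbtb16 had 9 and 16 sites with a median of -1.14. Lhx2, a regulator of follicle stem cells, had 16 and 11 sites, the largest difference in the other direction, though its shared sites had a median of -0.54. Lgr5, which encodes a receptor for R-spondins, had 7 and 17 sites, with none suprabasal-only and 10 basal-only, and a median of -0.83 that was 0.03 from fold enrichment. One of the basal-only sites, inside the gene (chr10:115455531-115456638), had 9.73 fpm. The basal TAC mice carry a knock-in allele at Lgr5, and its part in these values was not tested.

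**Figure D4:**
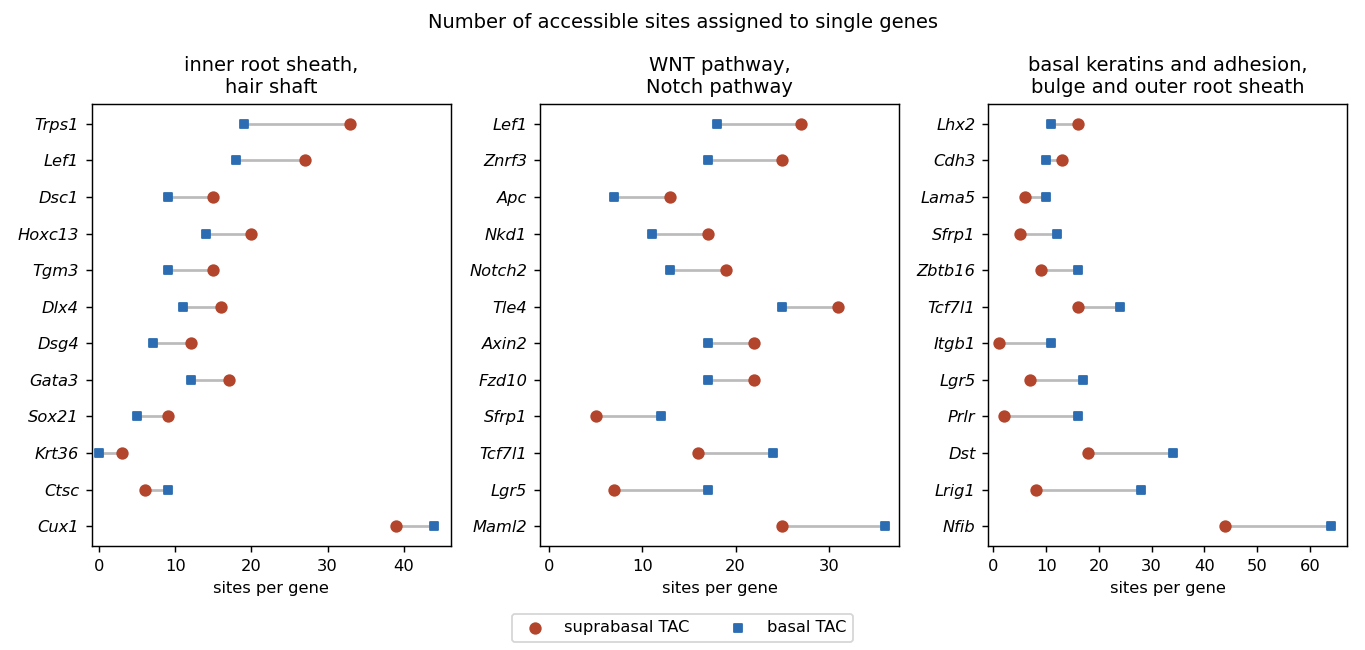
Number of sites per gene in suprabasal (red circles) and basal (blue squares) TACs, for the 12 genes of each pair of lists with the largest difference. Sheath and shaft genes mostly have more sites in suprabasal TACs (Trps1 33 against 19), and basal and bulge genes mostly fewer (Lrig1 8 against 28).

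Basal keratin and matrix adhesion genes were mixed in number of sites, with more in suprabasal TACs at 8 of 21 members and fewer at 7. Of 114 sites in 1 list only 45 were suprabasal (39.5%, 31.0 to 48.6), and 20 of the 69 basal-only sites were at Dst, without which the share was 45.6%, against 47.3% over all genes. At shared sites, 8 of 136 were at least 2-fold higher against 29 lower. Their median was -0.18 from pileup and 0.05 from fold enrichment. Itgb1, the integrin β1 gene used in the basal sort, had 1 site in suprabasal and 11 in basal TACs. The shared one is its start, with 4.14 fpm in suprabasal and 8.79 in basal TACs (centred ratio -0.52, 0.19 from fold enrichment), and the strongest basal-only one lay 18.6 kb upstream (chr8:128666591-128667522) with 4.51 fpm. Dst, which encodes the hemidesmosome linker BPAG1, had 18 and 34 sites, and one of its starts (chr1:34159431-34160690) had a pileup of 34 in suprabasal and 223 in basal TACs. At the start of the basal keratin Krt5 (chr15:101712505-101714672) the pileup was 110 in suprabasal and 267 in basal TACs, or 2.30 and 8.66 fpm. The centred ratio there was -1.35 from pileup but -0.07 from fold enrichment. Other sort markers differed less: Itga6 had 13 and 12 sites, Cdh3, which encodes P-cadherin, 13 and 10, and Cd34 6 and 6, although the Cd34 start had 0.564 fpm in suprabasal and 2.37 in basal TACs. Ly6a, which encodes SCA1, had 1 site in suprabasal and none in basal TACs. Krt14, whose promoter drives the reporter in the suprabasal sort, had 6 and 6 sites, with 1.61 fpm at its start in suprabasal and 1.98 in basal TACs. The centred ratio at the Krt14 start was 0.27, above the typical shared site.

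Epidermal differentiation genes had 76 suprabasal-only sites of 112 in 1 list only (67.9%, 58.7 to 75.8), more sites in suprabasal TACs at 18 of the 27 members with a site and fewer at 5, and a median of 0.42 at 143 shared sites. Desmosome and tight junction genes had 74 of 104 (71.2%, 61.8 to 79.0), more sites at 12 of 18 members and fewer at 1, with a median of 0.19. The desmoplakin gene Dsp had 18 and 10 sites, and the plakin gene Ppl a suprabasal-only site of 5.41 fpm (chr16:5130936-5132749). Both telogen lists also had a peak at this Ppl site, and its fold enrichment was 3.20. Cebpb, a driver of keratinocyte differentiation, had 23 and 17 sites. The claudin gene Cldn4 had 4 and 3 sites and a median of 1.46. Zfp750, which promotes late epidermal differentiation, had 2 shared sites in each population, with 6.08 and 3.64 fpm in suprabasal TACs against 2.66 and 1.52 in basal TACs; on the fold enrichment scale its median was -0.16. Other members had the opposite order at the start. The involucrin gene Ivl, a cornified layer component, had 1.46 fpm in suprabasal and 5.71 in basal TACs. Casp14, a protease gene of that layer, had 0.794 and 3.28, with a fold enrichment ratio of the other sign (0.50).

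Cell cycle genes had near-equal counts, with 44 of 81 sites in 1 list only in the suprabasal list (54.3%, 43.5 to 64.7), equal numbers of sites at 15 of 30 members, and 11 shared sites higher and 11 lower by at least 2-fold. Ccnd2, a G1 cyclin gene, had 16 sites in suprabasal and 9 in basal TACs, whereas Cdk1 had 4 and 9. Of 100 sites of AP-1 and stress factor genes in 1 list only, 52 were suprabasal (52.0%). Creb5 held 7 suprabasal-only and 31 basal-only sites, and Bach2 22 and 2. The share was 72.6% without Creb5 and 39.5% without Bach2, the last chosen after the data were seen.

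Among members of all lists, 39 genes had a gene-end site in suprabasal TACs alone (43 sites) and 14 in basal TACs alone (16 sites). The suprabasal share of these sites was 72.9%, against 55.1% of all 2619 sites in 1 list only within 1 kb of a gene end. Besides Krt26, Krt72 and Krt73 the suprabasal ones included Krt1, Krt34, Krt36, Dsg4, Wnt10a and Jun. The basal ones held the starts of Tek and Ednrb and sites at Krt15, Myc and Hes1. Some of these adjoin a stronger peak and are weak against its background: the basal site at Hes1 had a fold enrichment of 1.56 and the suprabasal one at Jun 1.82.

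Markers of other cell types that a sort could hold were present in both lists. Endothelial genes had 23 sites in suprabasal and 40 in basal TACs over 5 markers; Tek had none and 11, Emcn none and 8, while Pecam1 had 12 and 9 and Cdh5 9 and 10. Melanocyte markers had 37 and 35 sites over 6 genes (Mitf 13 and 21, Dct 13 and 8, Tyr none in either), immune markers 12 and 12 over 4, dermal markers 26 and 18 over 4, and sebaceous gland markers 11 and 18 over 3. Merkel cell markers had 10 and 19 sites over 3 genes, 8 and 16 of them at Piezo2, with Krt20 at none in either. Of their sites in 1 list only, the suprabasal list held 16 of 52 over the whole endothelial list (30.8%), 24 of 41 for melanocyte, 6 of 10 for immune, 22 of 36 for dermal, 12 of 26 for sebaceous gland and 4 of 16 for Merkel cell genes. Their part in the differences above was not tested. As a check of the labelled populations, the 7 basal epithelial markers had 49 and 52 sites, the 5 inner root sheath markers 33 and 23, and the 5 hair shaft markers 52 and 38, and none of the 17 was without a site in either list. Of the basal markers only Itgb1, used in the basal sort, had fewer sites in suprabasal TACs (1 and 11). Krt14 had 6 and 6, and the rest had more in suprabasal TACs. By number of sites the basal markers thus did not separate the populations. A higher number in suprabasal TACs was also not particular to sheath and shaft markers, since dermal markers had 26 and 18.

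Single strong sites were named by a fixed rule, the 10 highest in each class. The strongest suprabasal-only site lay in Chl1, a cell adhesion gene (chr6:103649054-103649288), with a pileup of 1715, or 35.8 fpm, in only 235 bp. A site near Myl12b (chr17:70963665-70963895) was of the same kind, with 8.74 fpm in 231 bp. The rest had 5.02 to 6.19 fpm and included sites at Nkd1, Ppl, Nrarp, Tspan18, Ctsb and Fhod3, one 78.9 kb downstream of Cebpb, and one 29.3 kb upstream of Egfl7, which is also within 60 kb of the Notch1 start. Of these 10 sites 4 overlapped a telogen peak. The 10 strongest basal-only sites had 7.82 to 11.3 fpm, and 7 of them overlapped a telogen peak. The first lay 17.4 kb upstream of the mitotic kinesin gene Kif11 (chr19:37358218-37358956), and others in Cacna2d3, Phactr2, Lgr5, Adamts2, Sfi1 and Tnfrsf1b or near Oca2, Bsg and Plekhh2. The Sfi1 site was weak against its background, with a fold enrichment of 2.19, against 7.40 to 13.5 at the other basal-only sites named here. Among shared sites with a pileup of at least 30 in both lists (36699), the 10 highest centred ratios lay between 2.72 and 3.05, at Notch1, Apcdd1, Mical2, Taf13, Celsr1, Ddx1, Reep3, Acsl5, Med4 and St14. Apcdd1 encodes a WNT inhibitor linked to hair loss in humans, and St14 the membrane protease matriptase. The 10 lowest lay between -3.37 and -2.97, led by a site in Enox1 with 0.627 fpm in suprabasal and 9.60 in basal TACs; the others were at Nox3, Man2a1, Gpsm2, Creb5, Tstd1, Eif4a3l1, Col16a1, Hs3st3a1 and Vps13d. Both telogen lists had a peak at 7 of these 10 lowest sites and at 2 of the 10 highest.

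By the median over a gene's shared sites, among 2674 genes with at least 5, the highest were Appl2 (1.93), Kif26a (1.85), Aspg (1.74), Ovol1 (1.71) and Cpne5 (1.64). Ovol1 encodes a zinc finger factor that moves keratinocytes out of the cell cycle, and its median on fold enrichment was -0.01. Bahd1 (1.55), Sh3bp5 (1.52) and Ap4e1 (1.503) followed. Tbcd (1.42) spans Zfp750, and Gm9376 (1.46) lies 30.1 kb from Sox21. The lowest were Atp12a (-2.39), Cdon (-2.37), Tgfbr3 (-2.03), Dcaf5 (-1.95), Fgf5 (-1.91) and Tnc (-1.85). On fold enrichment the median was -0.08 for Atp12a and -0.14 for Fgf5, against -1.62 for Cdon, -0.78 for Tgfbr3, -0.74 for Dcaf5 and -0.61 for Tnc. Among the highest it was 0.89 for Appl2, 0.16 for Kif26a, 0.21 for Aspg and 0.41 for Cpne5. Tgfbr3 encodes a TGF-beta co-receptor, with 12 sites in suprabasal and 19 in basal TACs. Tnc encodes the matrix protein tenascin-C, with 8 and 22. Fam167a (-1.80), Scrg1 (-1.78) and Fam50b (-1.75) came next, and Thbs2, a matrix thrombospondin gene, had 5 and 12 sites and a median of -1.72.

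Aspg and Kif26a flank Mir203, 3.31 and 13.0 kb from it. The microRNA miR-203 is known in mouse skin to appear as keratinocytes leave the basal layer and to repress Trp63. The locus, and that of Mir205, a microRNA of basal and stem cells in skin, were looked at after the values of their neighbours had been seen. The mature sequences from RefSeq (GRCm38.p6) are given with the seed, bases 2 to 8, in capitals.
mmu-miR-203-3p: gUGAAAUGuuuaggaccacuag
mmu-miR-205-5p: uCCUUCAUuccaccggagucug
Within 60 kb of the Mir203 hairpin (chromosome 12, start 112130880) were 8 suprabasal-only, 1 basal-only and 12 shared sites, and 9 of the shared sites were at least 2-fold higher and none lower. The nearest, 1.27 kb upstream by its centre (chr12:112128350-112130866), had a pileup of 333 in suprabasal and 124 in basal TACs, or 6.96 and 4.02 fpm, a centred ratio of 1.36 from pileup but -0.25 from fold enrichment. A site 13.2 kb upstream (chr12:112116937-112118512) had 344 and 69, a centred ratio of 2.25 (1.87 to 2.64). The site 2.33 kb downstream (chr12:112132638-112133776) had 294 in suprabasal and 84 in basal TACs and no telogen peak. Of the 9 higher sites 7 were also above 0 on fold enrichment, and the median over the 12 shared sites was 1.46 from pileup and 0.17 from fold enrichment. Around Mir205, 7 sites were suprabasal-only, 3 basal-only and 15 shared, with 3 of these at least 2-fold lower and none higher, and a median of -0.52 (0.02 from fold enrichment).

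**Figure D5:**
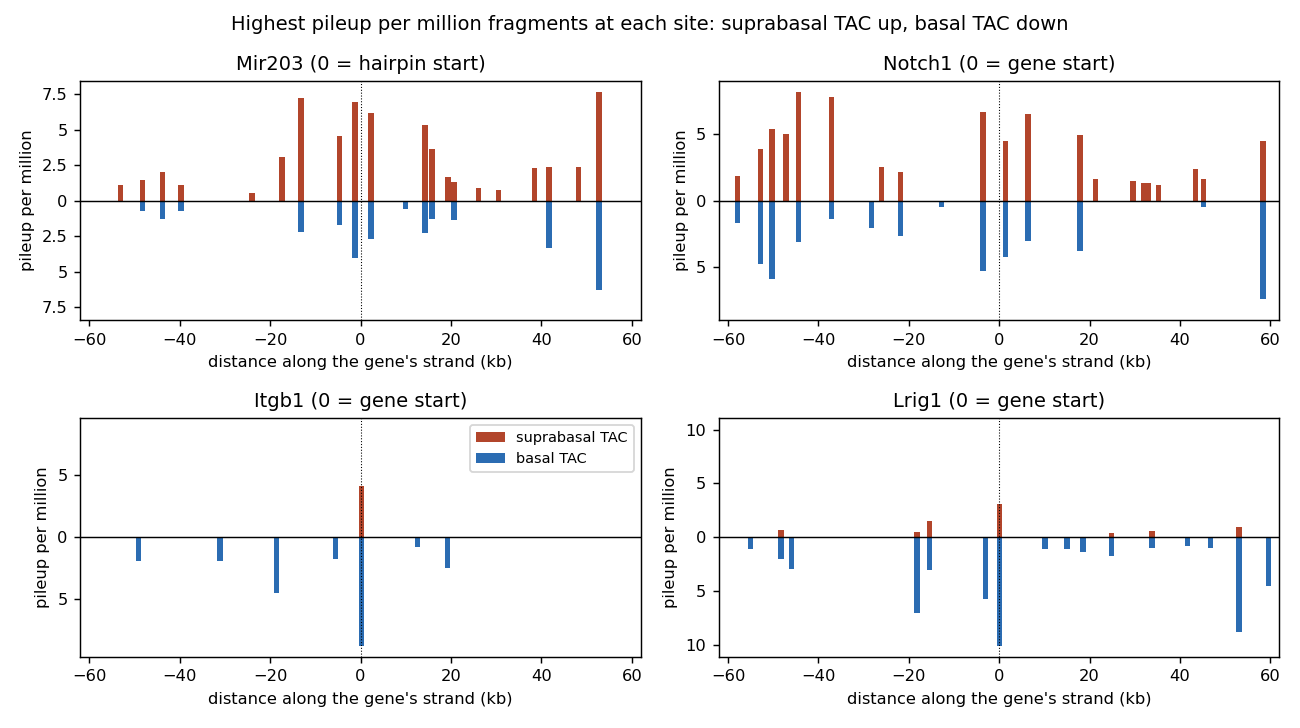
Highest pileup (fpm) at each site against the distance of its centre from the hairpin or gene start (kb, along the strand), suprabasal TACs upward and basal TACs downward, at 4 loci. Most suprabasal bars are the taller around Mir203 (6.96 against 4.02 at the nearest site, where fold enrichment has the other direction), and the basal bar is the taller at each Lrig1 site (3.05 against 10.1 at the start), and Itgb1 has 1 suprabasal bar at its start.

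Promoter windows were compared by their letters, as a description, and 3 of the 12 motifs are given here, chosen after their values were seen. Windows that overlap a suprabasal-only site (248) had a median of 10 CpG, and those at a basal-only site (300) 8, against 22 for windows at shared sites within 2-fold (11003). A LEF/TCF match was found in 4.84% of windows at suprabasal-only sites (2.79 to 8.27) and 1.67% at basal-only sites (0.714 to 3.84), with 3.25% over all windows. At shared sites the order was reversed, with 3.45% at those at least 2-fold higher and 3.96% at those at least 2-fold lower. An NFI match was found in 10.8% (7.41 to 15.4) of windows at shared sites at least 2-fold higher and 18.2% (14.2 to 22.9) at those at least 2-fold lower, with 13.1% over all windows. For NFI the order was reversed at sites in 1 list only, with 16.9% at suprabasal-only and 15.0% at basal-only sites. An RBPJ match was found in 19.4% (14.9 to 24.7) of windows at suprabasal-only sites and 27.7% (22.9 to 33.0) at basal-only sites. At shared sites it was found in 21.6% at those at least 2-fold higher and 29.7% at those at least 2-fold lower. The intervals overlap in each pair. Over all windows the RBPJ share was 24.2%. Windows at shared sites within 2-fold held a LEF/TCF, NFI and RBPJ match in 2.35%, 10.2% and 22.4% of cases. All windows include 8933 with no site, where these shares were 4.33%, 16.4% and 26.3%. A match of these letters does not show that a factor binds.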

How the data were processed

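The 4 TAC samples were analysed as 2 deposited peak lists, 1 per population, each called by the authors on 1 pooled alignment. Per the file headers, the caller was MACS2 2.1.1.20160309 in its paired-end mode, keeping duplicates, with a q-value cutoff of 0.05 and no control library; the submitters' processing notes also name Bowtie2 2.2.9, Picard and mm10. For every peak the deposited tables give its length in bp, a pileup signal (coverage at the summit, not scaled for depth), −log10 p and −log10 q scores, and a fold enrichment ratio over local background, all from the authors' caller. Whether read ends were moved to the cut position is not stated in these sources.

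From these, overlapping peaks were merged, the highest pileup was scaled to 1000000 of the header's fragments, and log2 ratios were centred on the median of shared sites (Python 3.11.15, numpy 2.4.6, pandas 2.3.3, scipy 1.17.1, matplotlib 3.10.9). Single ratios have exact conditional 95% intervals, shares Wilson intervals, both for counting error only. Overlap between populations could not be set against replicate spread, so no test was made. Merging and centring were tested on simulated lists. Gene spans, promoter windows and microRNAs came from RefSeq on GRCm38.p6; starts were known for 17491 of 21627 protein-coding genes, and upstream or downstream is given only for these. Exons and introns were not separated.

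Named were the 10 strongest sites in each list only, the 10 highest and 10 lowest shared ratios, the 10 highest and lowest gene medians, list members with the largest difference in sites or a gene-end site in 1 list only, and the sort markers; other list members, the loci drawn and the sequences were chosen after their values were seen. The comparison, lists and motifs were chosen with earlier results of these data known. Krt74 and Krt85 were not used here.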

Additional observations from a re-analysis of the deposited data

Results flagged for a closer look

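Peaks on the Y chromosome were outside the comparison. The suprabasal list held 13 and the basal list 12, in animals of mixed sex by the labels. In the suprabasal list they touched 1 protein-coding gene, Gm52481, and in the basal list 4 Y-linked protein-coding genes, Ddx3y, Eif2s3y, Kdm5d and Uty. Both telogen lists also had peaks at Ddx3y, Eif2s3y, Kdm5d and Uty, and the bulge list at Gm52481. The suprabasal list, from the deepest library (47852893 fragments), had none at the first 4. Whether the pools differed in their make-up by sex was not tested. These Y-linked peaks were noted as signal in data that no comparison used.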

How the results depend on the processing

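With peaks of a −log10 q of at least 10, sites in the suprabasal list only numbered 12466, and shared sites past 2-fold numbered 2818 higher and 3410 lower in suprabasal TACs; sites in the basal list only numbered 24422, within 1.5 times. With absence scaled for depth, 11323 sites were suprabasal-only and 16803 basal-only. With no centring 1814 shared sites were higher and 13260 lower, and with fold enrichment 1803 and 2514; for the last the cause was not tested. Equal numbers of peaks, merging peaks up to 500 bp apart and centring on gene-end sites moved no count by over 1.5 times. Over the settings run, the suprabasal share of sites in 1 list only lay at 70.4 to 74.6% for hair shaft, 67.5 to 80.3% for inner root sheath, 49.4 to 65.8% for Notch, 50.0 to 61.1% for WNT, 21.4 to 33.8% for bulge, 28.3 to 45.6% for basal adhesion and 25.9 to 42.6% for EGF and FGF genes, while the share over all genes was 35.0% with the stricter q and 42.2% with absence scaled for depth. No paired analysis was possible because each list pools both samples of a population; for the same reason no replicate could be left out.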

Other observations

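Many genes had sites of both kinds, in the suprabasal list only and in the basal list only. Such sites were mostly weak, and absence from a list does not show closed chromatin. Of 11799 genes with any site in 1 list only, 5065 (42.9%) had at least 1 in the suprabasal and at least 1 in the basal list. The 56 genes with 10 or more of each were long, with a median span of 455 kb against 23.1 kb over all genes with a site. Tenm4, a teneurin gene, had 30 suprabasal-only and 11 basal-only sites, and the polarity gene Pard3 had 26 and 17. Gli2 and Gli3, the hedgehog transcription factors, had 14 and 14 and 13 and 12, Tcf7l2, a TCF factor of the bulge, 13 and 11, and Cux1 14 and 19. At such genes an equal number of sites in suprabasal and basal TACs (38 and 38 at Gli2) does not mean the same sites.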
